A study of Mus musculus with 8 samples.

Results

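The transcription factor NRF2, the proteins that hold it in check or pair with it, and genes read as direct gauges of its activity were followed in mouse liver after furan exposure. The set held 10 genes. Nfe2l2 encodes NRF2 and Nfe2l1 its relative NRF1. Keap1 and Bach1 encode its main inhibitor and its competitor on DNA. Maff, Mafg and Mafk encode the small MAF partners, and Nqo1, Osgin1 and Sqstm1 are target genes. They were chosen by gene symbol, through the RefSeq accession of each array probe, and each gene was read from its brightest probe with signal well above background on 4 or more of the 8 arrays. All 10 had such a probe, and it cleared background on all 8 arrays, out of 24921 genes or transcripts tested. Liver RNA came from 8 female B6C3F1 mice, bought at 5 to 6 weeks of age and acclimatised for 7 or more days. The furan group was made up of 4 of them, replicates 41, 42, 43 and 44, given 8 mg furan per kg body weight dissolved in corn oil. The vehicle group was the other 4, replicates 2, 3, 4 and 6, given the oil alone. Gavage ran for 21 days in both groups, livers were collected 4 hours after the last dose and snap frozen, and each liver was hybridised to its own one-colour Agilent array.

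Under resting conditions KEAP1 binds NRF2 in the cytoplasm and presents it to the CUL3 ubiquitin ligase, so that NRF2 protein is made and destroyed continuously. Reactive electrophiles and oxidants modify cysteines of KEAP1, NRF2 then accumulates in the nucleus, pairs with a small MAF protein and binds antioxidant response elements in the promoters and enhancers of detoxification genes. BACH1 pairs with the same MAF proteins and represses overlapping sites until heme displaces it. Furan itself is oxidised in the liver by CYP2E1 to a reactive dialdehyde that binds cysteines and amines. The arrays measured RNA, and no protein level was measured.

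The promoter sequences of the 3 genes that passed the test are shown because NRF2 with a small MAF is known to bind elements of the form TGACNNNGC, and elements of the form TGANTCAGC. RefSeq promoter windows on mouse build GRCm38.p6 were found for 10 of 10 genes, 16 windows in all. The 250 bases before each transcription start were searched on both strands for these 2 motifs and for TGANTCA, the AP-1 type motif contained in the second. Capitals mark every match, and each sequence runs 5′ to 3′ along the gene.
Nfe2l2, chr2:75704664-75704913, minus strand: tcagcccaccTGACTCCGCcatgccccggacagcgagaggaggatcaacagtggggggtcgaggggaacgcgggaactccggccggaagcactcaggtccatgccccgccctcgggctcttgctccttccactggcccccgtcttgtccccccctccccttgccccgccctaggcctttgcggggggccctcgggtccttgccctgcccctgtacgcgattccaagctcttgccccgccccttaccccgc
Nqo1, chr8:107403206-107403455, minus strand: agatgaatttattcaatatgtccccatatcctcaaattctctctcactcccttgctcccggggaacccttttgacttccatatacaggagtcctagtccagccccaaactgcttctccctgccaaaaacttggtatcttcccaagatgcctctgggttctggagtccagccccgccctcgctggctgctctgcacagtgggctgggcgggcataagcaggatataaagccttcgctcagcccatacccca
Osgin1, chr8:119436897-119437146, plus strand: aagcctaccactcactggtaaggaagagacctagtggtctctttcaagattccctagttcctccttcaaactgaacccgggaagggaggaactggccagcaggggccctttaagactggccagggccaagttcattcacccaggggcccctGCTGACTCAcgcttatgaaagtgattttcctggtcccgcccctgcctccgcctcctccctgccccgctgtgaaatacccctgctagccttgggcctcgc

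Nfe2l2 held 1 match to TGACNNNGC, 240 to 232 bases before the start. Osgin1 held 1 match to TGANTCAGC on the opposite strand, 99 to 91 bases before the start, which overlaps the shorter TGANTCA. Nqo1 held no match in this window, and bases farther upstream were not searched for any gene. Each of the small MAF genes held 1 match to TGACNNNGC in 1 window, shown with up to 10 bases on either side.
Maff, chr15:79346499-79346527, plus strand: gggcgtctcaTGACTCTGCcactggaaag
Mafg, chr11:120633751-120633779, minus strand: ctctgcaggaGCACGGTCAacccggcgag
Mafk, chr5:139791513-139791535, plus strand: gatcccggaaGCGGTGTCAgtac
The Maff match lay in 1 of the 3 start windows of that gene. The windows of Nfe2l1, Keap1, Bach1 and Sqstm1 held no match to the 3 motifs. Over all 32851 promoter windows of 250 bases in the table, 10.2% held TGACNNNGC, 1.02% held TGANTCAGC and 6.75% held TGANTCA.

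Furan was compared with vehicle to ask which of the 10 genes differed in liver RNA after 3 weeks of dosing. Nfe2l2, Nqo1 and Osgin1 rose, at 1.67-fold, 2.55-fold and 2.95-fold, and 0 of the 10 fell. The other 7, Nfe2l1, Keap1, Bach1, Maff, Mafg, Mafk and Sqstm1, did not pass the test. A level is the log2 signal of a probe less the 75th percentile of all probes on that array, and a change is the furan mean less the vehicle mean. The test was limma with Benjamini-Hochberg adjustment over all 24921 genes or transcripts, at an adjusted p under 0.05. It called 4.18% of them, 2.87% higher and 1.31% lower, beside 3 and 0 of the 10 genes. The furan and vehicle values did not overlap for 4 of the 10, Nfe2l2, Mafk, Nqo1 and Osgin1, all higher on furan arrays. Among all genes or transcripts with a value on every array, 10.8% lay wholly above and 7.36% wholly below. The median log2 change was 0.39 over the 10 genes and -0.09 over all genes tested. The small number of arrays, 4 a group, limits the precision.

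The 8 arrays shared 1 slide and 1 scan. Between 55.1% and 69.4% of probe spots were well above background on 7 arrays, and 86.2% on the array of vehicle replicate 2, which stood apart. Without vehicle replicate 2 the log2 change was 0.70 for Nfe2l2 (limma adjusted p = 0.0686), 1.26 for Nqo1 (0.00746) and 1.73 for Osgin1 (0.0219). The hepatocyte marker Alb, serum albumin, averaged 10.31 on furan arrays and 10.33 on vehicle arrays, and the mean level of 8 hepatocyte markers was 8.52 to 8.68 on furan arrays and 8.39 to 8.72 on vehicle arrays. The mean of 7 macrophage markers was 3.92 to 4.29 on furan arrays and 3.69 to 5.05 on vehicle arrays. Vehicle replicate 4 alone gave the 5.05, against 3.72, 4.05 and 3.69 on replicates 2, 3 and 6. The mean of 7 sinusoidal endothelial markers was 2.23 to 2.44 on furan arrays and 2.48 to 2.69 on vehicle arrays. That of 7 lymphocyte markers was -1.45 to -1.31 on furan arrays and -1.26 to -0.87 on vehicle arrays. Vehicle replicate 4 alone gave the -0.87, against -1.24, -1.26 and -1.24 on replicates 2, 3 and 6. Without vehicle replicate 4 the log2 change was 0.78 for Nfe2l2 (limma adjusted p = 0.0849), 1.31 for Nqo1 (0.0228) and 1.54 for Osgin1 (0.0643). In limma 0 of the markers of these 4 lists passed. An unadjusted p under 0.05 was found for 4 of them, beside 5931 of all 24921 genes. Vehicle replicate 2 also stood highest for the mean of 6 bile duct markers, at -0.84, against -2.49 to -2.31 on the other vehicle arrays. On furan arrays that mean was -2.80 to -1.79, and 0 of the 6 passed. The mean of 7 stellate cell markers was 0.12 to 0.41 on furan arrays and 0.10 to 0.49 on vehicle arrays. Of these 7, 0 passed and 2 had an unadjusted p under 0.05, Col1a1 (log2 change 0.51) and Pdgfrb (0.32). Of 3 neutrophil, 5 erythroid and 3 exocrine pancreas markers measured 0 passed, with 1 pancreas marker at an unadjusted p under 0.05. The part of all these markers in the results below was not tested. In whole liver RNA, fewer cells of a type and less RNA per cell cannot be told apart.

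**Figure D1:**
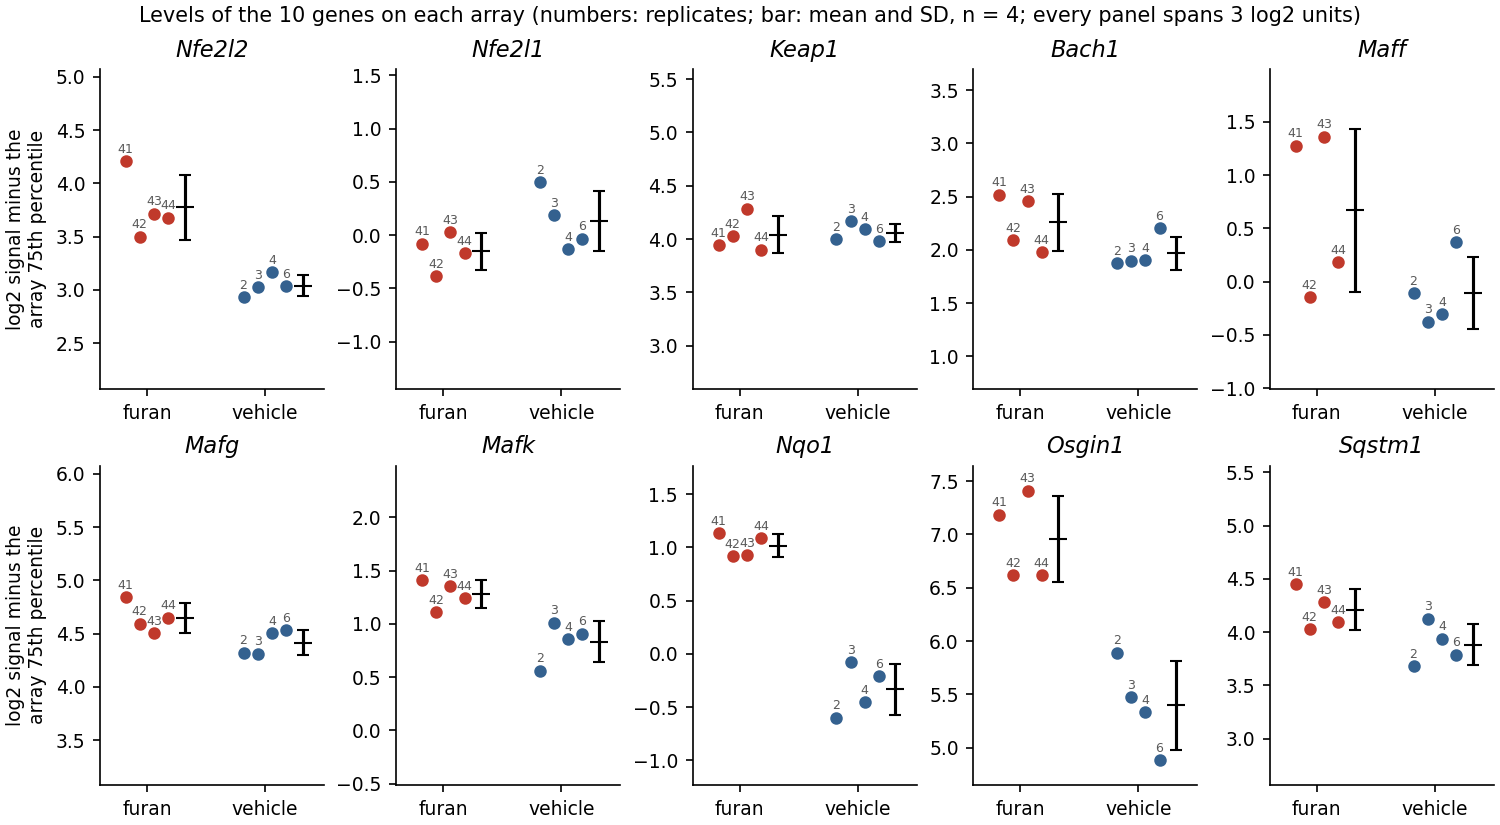
Levels of the 10 genes on each array, as log2 signal minus the 75th percentile of the array, with furan left of vehicle, replicate numbers above the points and the mean with SD (n = 4) beside them. The groups do not overlap for Nfe2l2, Mafk, Nqo1 and Osgin1, and the widest spread within a group is that of Maff on furan arrays.

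Nfe2l2, the gene for NRF2 itself, stood at 4.21, 3.50, 3.72 and 3.68 on the arrays of furan replicates 41 to 44. On the arrays of vehicle replicates 2, 3, 4 and 6 it stood at 2.93, 3.02, 3.17 and 3.03. The 4 vehicle values lay close together, furan replicate 41 was the highest, and the lowest furan value was above the highest vehicle value. The mean was 3.77 ± 0.30 in furan and 3.04 ± 0.10 in vehicle (SD, n = 4 each), a log2 change of 0.74 ± 0.16 (SE, limma adjusted p = 0.0429). In limma over each of the 33848 probes well above background on 4 or more arrays, its adjusted p was 0.05003 and did not pass. Removing any single array ended the Nfe2l2 call, with limma adjusted p between 0.0628 and 0.105. The change was then smallest, 0.59, with furan replicate 41 removed, and largest, 0.83, with furan replicate 42 removed. The call held in 6 of the 11 other alternative fits. Nfe2l2, Nqo1 and Osgin1 were each read from 1 probe without outlier spots. For them the fits with another filter, outlier spots kept, averaged probes, trend and robust, or a block left the change as it was. Those fits altered only its error and the adjustment.

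Keap1, the adaptor that delivers NRF2 to the ubiquitin ligase, stood at 3.94, 4.03, 4.29 and 3.90 on furan arrays, against 4.00, 4.17, 4.09 and 3.98 on vehicle arrays. The vehicle values lay within the range of the furan values, and furan replicate 43 was the highest of the 8. The log2 change was -0.02 ± 0.11 (limma adjusted p = 0.913). Its sign turned to 0.46 when arrays were shifted to their median, where the median of all genes was 0.39.

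Nqo1 encodes the quinone reductase most often used as a readout of NRF2. It stood at 1.14, 0.92, 0.93 and 1.08 on furan arrays, against -0.60, -0.08, -0.45 and -0.21 on vehicle arrays. The 4 furan values lay close together and well clear of every vehicle value. The mean was 1.02 ± 0.11 in furan and -0.33 ± 0.24 in vehicle (SD, n = 4 each), a log2 change of 1.35 ± 0.13 (SE, limma adjusted p = 0.00501). The Nqo1 call survived the removal of each of the 8 arrays in turn. It held in 9 of the 11 other alternatives, the exceptions being the shift to the array median (0.0753) and the slide column as a block (0.107). Several of these 11 left the change itself at 1.35, as said above.

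Osgin1, an NRF2-induced gene whose product restrains growth in cultured cells, stood at 7.18, 6.62, 7.41 and 6.62 on furan arrays, against 5.89, 5.47, 5.33 and 4.88 on vehicle arrays. Furan replicates 41 and 43 were above 42 and 44, and the vehicle values spread about as widely as the furan values. The mean was 6.96 ± 0.40 in furan and 5.40 ± 0.42 in vehicle (SD, n = 4 each), a log2 change of 1.56 ± 0.26 (SE, limma adjusted p = 0.0230). When single arrays were removed, the Osgin1 call was kept only with vehicle replicate 2 removed. Removal of any of the other 7 gave limma adjusted p between 0.0516 and 0.0735, at log2 changes of 1.39 to 1.68. It held in 9 of the 11 other alternatives, and ended with the slide column as a block (0.0959) and without a filter on dim probes (0.0687). Several of these 11 left the change itself at 1.56.

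Sqstm1 encodes p62, an autophagy receptor that binds KEAP1 and is itself a target of NRF2. It stood at 4.45, 4.03, 4.28 and 4.09 on furan arrays, against 3.68, 4.13, 3.94 and 3.79 on vehicle arrays. Vehicle replicate 3 lay above furan replicates 42 and 44, so the groups overlapped. The log2 change was 0.33 ± 0.14 and did not pass (limma adjusted p = 0.197, unadjusted p = 0.0436).

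Bach1, the heme-sensitive repressor, stood at 2.52, 2.09, 2.45 and 1.98 on furan arrays, against 1.87, 1.90, 1.90 and 2.20 on vehicle arrays. Vehicle replicate 6 stood above furan replicates 42 and 44. The log2 change was 0.29 ± 0.15 (limma adjusted p = 0.276).

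The 3 small MAF genes encode short leucine zipper proteins without an activation domain of their own. Mafk was at 1.41, 1.11, 1.35 and 1.24 on furan arrays, against 0.56, 1.01, 0.86 and 0.91 on vehicle arrays. Its groups did not overlap, though furan replicate 42 and vehicle replicate 3 came near each other. The log2 change of Mafk was 0.45 ± 0.12 (limma adjusted p = 0.0829), and among 19 alternative fits it passed only in eBayes with trend and robust (0.0431). Maff was at 1.28, -0.14, 1.36 and 0.18 on furan arrays, against -0.11, -0.37, -0.31 and 0.37 on vehicle arrays. Furan replicates 41 and 43 stood high, while 42 and 44 lay within the vehicle range. The log2 change of Maff was 0.77 ± 0.37 (limma adjusted p = 0.245), a size like that of Nfe2l2 with a larger error. Mafg was at 4.84, 4.59, 4.50 and 4.65 on furan arrays, against 4.32, 4.31, 4.50 and 4.53 on vehicle arrays. Furan replicate 43 and vehicle replicates 4 and 6 lay together. The log2 change of Mafg was 0.23 ± 0.11 (limma adjusted p = 0.228). It was the one gene of the 10 with further probes, and these gave 0.04 and 0.01. Their limma adjusted p, here over each of the 33848 probes well above background, was 0.877 and 0.948.

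Nfe2l1 encodes NRF1, which is anchored in the endoplasmic reticulum membrane and is best known for restoring proteasome genes when the proteasome is blocked. It stood at -0.08, -0.39, 0.03 and -0.17 on furan arrays, against 0.50, 0.19, -0.13 and -0.03 on vehicle arrays. The groups overlapped, with vehicle replicate 2 the highest. The log2 change was -0.28 ± 0.16 (limma adjusted p = 0.304). Its sign turned to 0.20 when arrays were shifted to their median.

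A shift to the array median moved all 10 changes upward. Quantile normalization moved every change downward except that of Nqo1. Normexp with quantile normalization and the authors' value table each moved every change downward except that of Nfe2l1. The median log2 change of all genes was -0.09 with the 75th percentile, 0.05 with quantile normalization, 0.02 with normexp and quantile normalization, 0.01 in the authors' value table and 0.39 with a shift to the array median. Relative to that median, over these 5 scalings, the change was 1.19 to 1.44 for Nqo1, 1.44 to 1.65 for Osgin1 and 0.60 to 0.83 for Nfe2l2. It was 0.64 to 0.87 for Maff, 0.31 to 0.54 for Mafk, 0.18 to 0.42 for Sqstm1, 0.15 to 0.38 for Bach1 and 0.07 to 0.32 for Mafg. It was -0.35 to -0.19 for Nfe2l1. For Keap1 it was -0.17 to 0.07 and so took both signs. The shifts to the 75th percentile and to the median differ by a constant per array. Relative changes under these shifts therefore nearly coincide by construction.

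**Figure D2:**
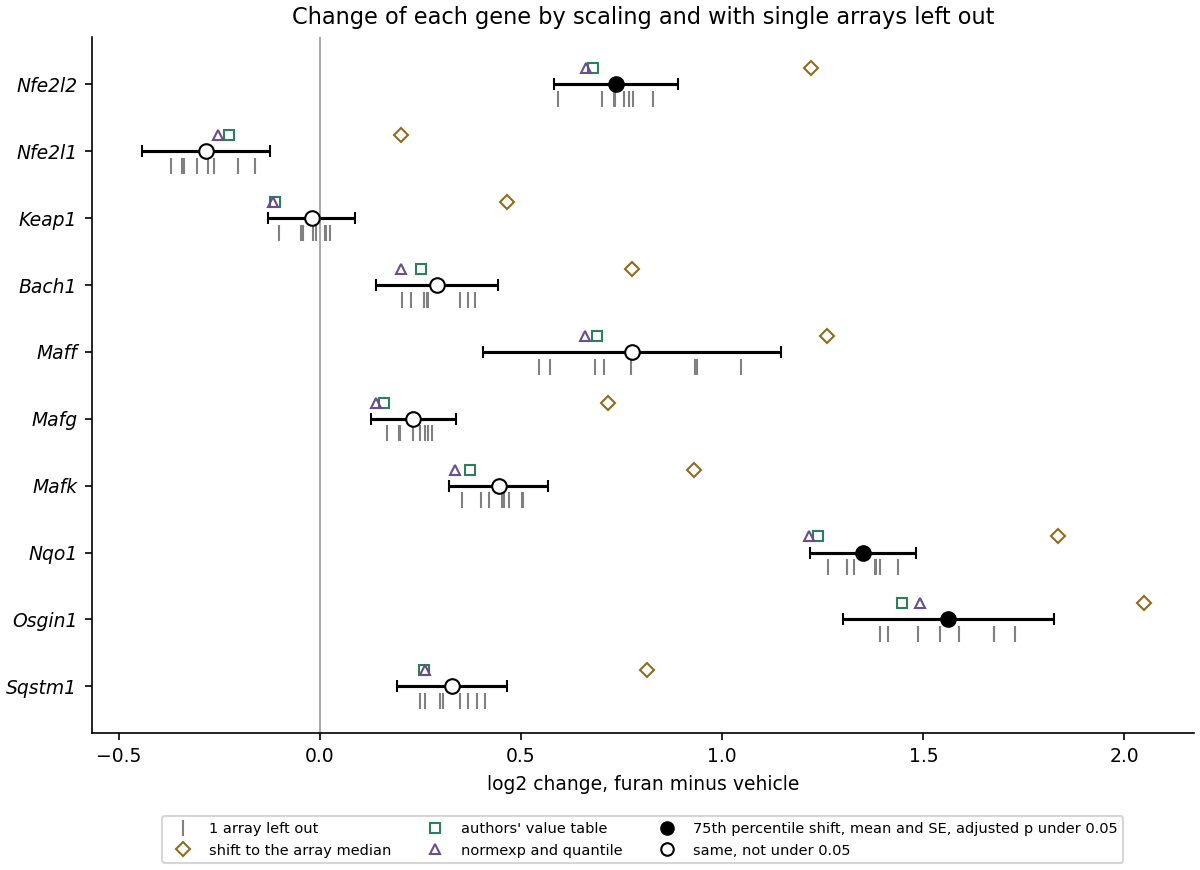
Log2 change of each gene, furan minus vehicle, with the SE of limma as bars and filled circles for an adjusted p under 0.05. Ticks below each circle are the fits with each of the 8 arrays removed, and open symbols above it are 3 other ways of processing. Nqo1 and Osgin1 lie farthest from 0 in each setting drawn, and a shift to the array median moves all 10 genes to the right.

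Furan replicates 41 and 43 were both above furan replicates 42 and 44 for 7 of the 10 genes, Nfe2l2, Nfe2l1, Bach1, Maff, Mafk, Osgin1 and Sqstm1. Over all genes or transcripts with a value on every array this order held for 22.9%. It was looked for after the values were seen and carries no test. Replicates 41 and 43 lay in slide columns 3 and 2, and replicates 42 and 44 in columns 1 and 4. The part that this position played was not tested.

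The slide has 2 rows and 4 columns of arrays. Each row held 2 furan and 2 vehicle arrays. Within rows 1 and 2 the log2 change was 1.41 and 1.29 for Nqo1, 1.63 and 1.497 for Osgin1, and 0.71 and 0.76 for Nfe2l2. Each column held 1 furan and 1 vehicle array. Furan was above vehicle in 4 of 4 columns for Nqo1 (by 1.00 to 1.73), Osgin1 (1.28 to 1.94), Nfe2l2 (0.46 to 1.28), Mafk (0.20 to 0.85), Mafg (0.06 to 0.52) and Sqstm1 (0.15 to 0.77). It was above in 3 of 4 for Maff and Bach1, in 2 of 4 for Keap1 and in 0 of 4 for Nfe2l1. With the slide column as a block, limma called 0 of the 10 genes, 4 of which had an unadjusted p under 0.05, and 0 of all 24921. The labels speak of a randomized block design and do not say what formed a block.

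Ratios of 2 genes on the same array do not depend on a shift of that array, and 8 pairs were compared. The log2 ratio of Nfe2l2 over Keap1 was -0.26 ± 0.39 in furan and -1.02 ± 0.10 in vehicle (SD, n = 4 each), a difference of 0.76 (2-sided exact permutation p = 0.0286, adjusted over the 8 pairs 0.0762). Nfe2l2 over Nfe2l1 differed by 1.02 and Nqo1 over Nfe2l2 by 0.61, with the same exact p and adjusted p. The furan and vehicle values of these 3 ratios did not overlap, and 0.0286 is the smallest p that 4 against 4 arrays allow. Nfe2l2 over Bach1 differed by 0.45, with furan values of 1.26 to 1.70 and vehicle values of 0.83 to 1.26 that just overlapped (exact permutation p = 0.0571, adjusted 0.114). Nqo1 over Osgin1 differed by -0.21 (exact permutation p = 0.629, adjusted 0.629), with furan values of -6.48 to -5.53 and vehicle values of -6.49 to -5.09. Among the small MAF genes the differences were 0.54 for Maff over Mafg, 0.33 for Maff over Mafk and -0.21 for Mafg over Mafk (exact permutation, adjusted p = 0.381, 0.457 and 0.183). In all, 0 of the 8 pairs passed an adjusted p of 0.05 in the exact permutation test and 3 had an unadjusted p under 0.05. With 3 pairs at the smallest p, the adjusted p cannot go below 0.0762. The levels behind a ratio come from different probes, so only its difference between groups can be read.

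**Figure D3:**
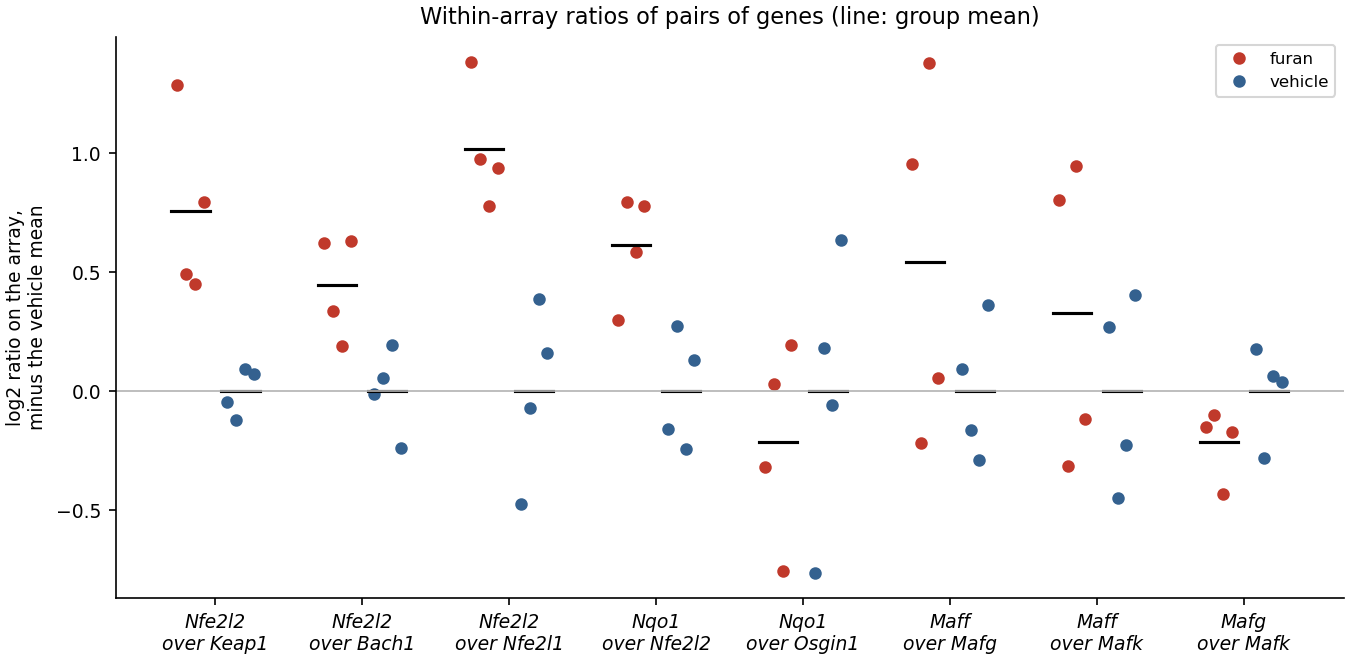
Log2 ratio of 2 genes on each array, minus the vehicle mean of that ratio, with furan points left of vehicle points for each of the 8 pairs and lines at the group means. The furan and vehicle points are apart for Nfe2l2 over Keap1, Nfe2l2 over Nfe2l1 and Nqo1 over Nfe2l2, and mixed for Nqo1 over Osgin1.

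Of 40 further genes listed as driven by NRF2, 37 were measured, and 11 rose and 0 fell in limma, beside 2.87% and 1.31% of all genes. Their median log2 change was 0.42, and furan values lay wholly above vehicle values for 22 of the 37 and wholly below for 1, beside 10.8% and 7.36% of all genes. That 1 was Trib3, a pseudokinase gene, at -0.91 (limma adjusted p = 0.0624), named after its value was seen. Ugt2b35, a glucuronosyltransferase gene with close paralogues, rose by 1.11 ± 0.09 (limma adjusted p = 0.00306), and Ephx1, the microsomal epoxide hydrolase gene, by 1.00 ± 0.11 (0.00603). The carbonyl reductase gene Cbr1 rose by 0.81 ± 0.09 (0.00847). Srxn1, which encodes the sulfiredoxin that repairs overoxidised peroxiredoxins, stood at 5.20, 4.52, 4.90 and 4.82 on furan arrays, against 3.48, 3.73, 3.76 and 3.47 on vehicle arrays. That is a log2 change of 1.25 ± 0.16 (0.0106), with the lowest furan value far above the highest vehicle value. These 4 calls survived the removal of each array in turn.

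Txnrd1, the cytosolic thioredoxin reductase gene, rose by 0.70 ± 0.11 (limma adjusted p = 0.0199), and Gclc, the catalytic subunit gene of glutathione synthesis, by 0.77 ± 0.13 (0.0224). Removal of single arrays kept the Txnrd1 and Gclc calls in 2 of 8 cases each. Gclm, the gene of the modifier subunit, had a log2 change of 0.22 ± 0.09 and did not pass (0.199). Hmox1, the heme oxygenase gene that BACH1 represses, stood at 5.48, 3.69, 3.91 and 3.85 on furan arrays, against 2.47, 2.89, 3.19 and 2.74 on vehicle arrays. All 4 furan values were above the vehicle values and furan replicate 41 was far above the other 3. The log2 change of Hmox1 was 1.41 ± 0.39 and did not pass (0.0849). Removal of single arrays, furan replicate 41 included, gave a pass in 0 of 8 cases. The other 5 genes that rose were Gsta2, Cbr3, G6pdx, Gstp1 and Txn1, named after their values were seen, by 0.36 for Txn1 to 2.17 for Cbr3. Slc7a11, Gsta1 and Cyp2a5 were not measured under the filter.

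**Figure D4:**
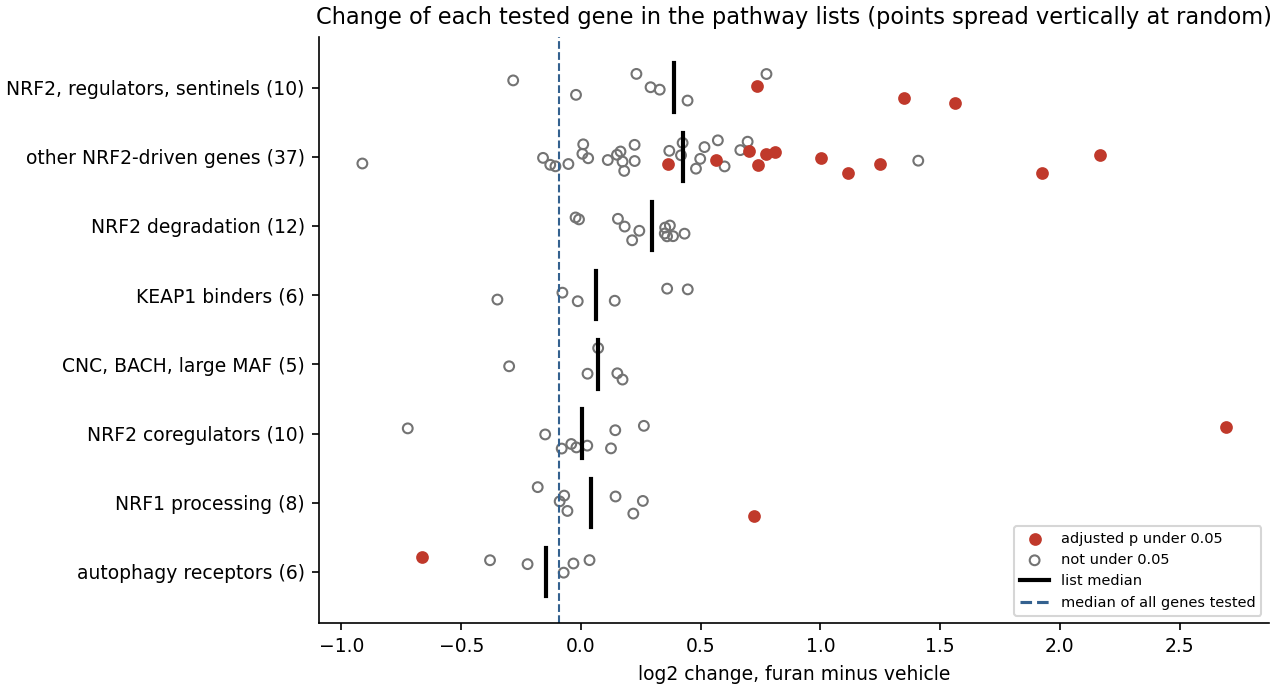
Log2 change, furan minus vehicle, of each measured gene in the 10-gene set and in 7 pathway lists, with the number of measured genes in brackets. Filled points have an adjusted p under 0.05, thick lines are list medians and the dashed line is the median of all genes tested. The points that passed are 11 of 37 in the NRF2-driven list, the largest, and 3 of 10 in the 10-gene set, beside 4.18% of all genes. Most of the degradation list lies to the right of the dashed line, with none filled.

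The machinery that destroys NRF2 was measured for 12 genes, and 0 passed in limma, while 7 had an unadjusted p under 0.05, beside 5931 of all 24921 genes. Their median log2 change was 0.30, and furan values lay wholly above vehicle values for 7 of the 12, beside 10.8% of all genes. The smallest adjusted p was that of Fbxw11, which encodes a substrate receptor of the ubiquitin ligase that recognises NRF2 after phosphorylation by GSK3, with a log2 change of 0.35 ± 0.09 (0.0623). Cul3, the ligase that works with KEAP1, had a log2 change of 0.37 ± 0.13 (0.138). Of 6 measured genes for other KEAP1-binding proteins 0 passed and 2 had an unadjusted p under 0.05, beside the same 5931 of 24921. Among them Pgam5, a mitochondrial phosphatase gene, had a log2 change of 0.36 ± 0.08 (limma adjusted p = 0.0529).

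Of 5 measured relatives of NRF2, BACH1 and the MAF factors, 0 passed in limma, beside 4.18% of all genes. Of these 5, 0 had an unadjusted p under 0.05, beside 5931 of all 24921 genes. Of 10 coregulator genes 1 passed, beside the same 4.18% of all genes. Atf3, a stress-induced factor reported to repress NRF2, stood at 1.78, 0.77, 1.31 and 0.88 on furan arrays, against -1.68, -1.86, -0.69 and -1.78 on vehicle arrays. Its groups were far apart, at a log2 change of 2.69 ± 0.32 (limma adjusted p = 0.00922).

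Of 8 genes for the release, processing and turnover of NRF1, 1 passed, beside 4.18% of all genes. Rad23b, which encodes a shuttle of ubiquitinated proteins to the proteasome, stood at 2.89, 2.88, 2.93 and 2.93 on furan arrays, against 2.12, 2.28, 2.24 and 2.10 on vehicle arrays. The furan values were nearly the same on all 4 arrays, and the gene rose by 0.72 ± 0.08 (limma adjusted p = 0.00653). Vcp, the segregase that pulls NRF1 out of the membrane, had a log2 change of 0.22 ± 0.09 (0.188), and Ddi2, the protease that activates it, one of -0.09 ± 0.10 (0.558). Of 6 other autophagy receptor genes 1 fell and 0 rose, beside 1.31% and 2.87% of all genes. The receptor gene Calcoco1 fell by 0.66 ± 0.11 on the log2 scale (0.0199). Removal of single arrays kept the Calcoco1 call in 2 of 8 cases. Nbr1, the receptor closest to p62 in build, had a log2 change of -0.07 ± 0.13 (0.735).

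The genes whose course over the 8 arrays was most like that of each gene that rose were found among 14209 others with an ordinary symbol, as the smallest root mean square difference of log2 values after subtracting each gene's vehicle mean. For Nqo1 they were Ccng1, a cyclin gene, Car2, a carbonic anhydrase gene, and Btg2, an antiproliferative gene, at 0.11, 0.13 and 0.14 log2 units. For Nfe2l2 they were Zfp746, Trdmt1 and Brd2 at 0.11, 0.12 and 0.12, and for Osgin1 they were Chka, Adam32 and Psat1 at 0.27, 0.29 and 0.30. These distances describe 8 arrays in 2 groups and carry no test.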

How the data were processed

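Per the file headers, the scanner software was Agilent Feature Extraction 11.0.1.1 and the processed spot intensity has had background subtracted and a spatial trend removed. The authors also deposited a table of log2 values, made by a method not given in the sources used here, which served as an alternative. Its column medians were 6.53 to 6.74, and its values tracked each array's log2 median intensity (correlation across probes 0.998 to 1.00), so the scale and direction are those of signal and its centring is not known.

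From each array's 59305 probe spots, 128 to 315 outlier spots were left out, and 0 were saturated. Log2 processed intensity was shifted to the array's 75th percentile and spots of 1 probe were averaged. Of 55681 probes, 33848 were well above background on at least 4 of 8 arrays. The brightest per gene entered limma 3.58.1 (lmFit, then eBayes, R 4.3.3; 1 group term, 2-sided). The scanner files carry no gene names. A RefSeq table for GRCm38.p6 gave a symbol to 27235 of 28685 probes with such an accession. The array annotation is on another build, so probe positions are not given, and promoter windows are those of the RefSeq table.

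The fit was tested on simulated data for 24921 genes. It recovered 11 of 67 genes with a 1.5-fold change, 36 of 67 at 2-fold and 55 of 66 at 4-fold. There were 3 false calls. The simulated changed genes were far fewer than the 1041 genes called in the real fit. The adjusted p depends on the share of changed genes, so these recoveries need not hold for the real data.

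The 10 genes and all lists were chosen with earlier results of these data known. Named genes were the 10, up to 6 (NRF2-driven list) or 3 (other lists) past the threshold with the smallest adjusted p, the first of a list with none, Hmox1, Gclc, Gclm and Txnrd1, and the 3 nearest profiles. Other genes were named after their values were seen. A gene that this rule names is not reported here. Alternatives were quantile normalization, a median shift, normexp with an offset of 50, the authors' table, no filter on dim probes, a filter that required all 8 arrays, outlier spots kept, the mean of a gene's probes, eBayes with trend and robust, slide row or column as a block, and each array left out. Normexp used the median spot intensity, since the files hold no mean spot intensity. Figures were drawn with matplotlib 3.10.9.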

Additional observations from a re-analysis of the deposited data

Results flagged for a closer look

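A sample stood far from the other 3 of its group, by Dixon's test, in 5 of 64 groups checked, where chance gives about 1 in 20. Bach1 was at 2.20 on the array of vehicle replicate 6, against 1.87 to 1.90 on the other vehicle arrays. Hmox1 was at 5.48 on the array of furan replicate 41, against 3.69 to 3.91 on the other furan arrays. Atf3 was at -0.69 on the array of vehicle replicate 4, against -1.86 to -1.68. Gclm was at 2.15 on the array of vehicle replicate 2, against 2.27 to 2.29. Calcoco1 was at -1.84 on the array of furan replicate 44, against -1.56 to -1.53.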

How the results depend on the processing

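Of the 10 genes, 3 passed, and this was 1 with a shift to the array median, 1 without a filter on dim probes, 0 with the slide column as a block and 1 to 2 when 1 array was left out. In the other alternatives it was 2 to 4. Of the other NRF2-driven genes 11 passed, against 2 with the median shift, 4 without the filter, 18 with the filter on all 8 arrays, 18 with trend and robust, 0 with the slide column (22 at an unadjusted p under 0.05) and 4 to 8 with 1 array left out. Of all genes 1041 passed, 714 higher and 327 lower, against 86 with the median shift (85 higher and 1 lower), 163 without the filter, 1671 in the authors' value table, 1733 with the filter on all 8 arrays, 2001 with trend and robust, 0 with the slide column (4723 unadjusted) and 195 to 927 with 1 array left out. Leaving out any array except vehicle replicate 2 left only Nqo1 past the threshold among the 10. The sign turned for Nfe2l1 (0.20) and Keap1 (0.46) with the median shift, for Keap1 with 1 array left out (-0.10 to 0.025) and for the ratio of Nqo1 over Osgin1 with 1 array left out (-0.47 to 0.00018). Of the 8 ratios 0 passed in the exact permutation test in any of the 14 alternatives run for them, which says nothing of stability, since so few pairs at the smallest possible p cannot pass after adjustment over 8. The cause of these differences was not tested. No paired analysis was possible because the groups share no replicate number and the labels do not say which animals shared a block, so arrays could be matched by slide position only, as above. Probes near background limit the dim genes.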
